A study of Mus musculus with 20 samples.

Results

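The 8 genes described here encode enzymes of cholesterol synthesis: Hmgcs1, Mvd, Idi1, Fdps, Fdft1, Sqle, Lss and Cyp51. They were chosen by gene symbol, with earlier results of these data known, and are 8 of the 21949 genes of the mRNA table. All 8 passed the filter on low values (a mean FPKM of at least 0.5), as did 13722 genes in all. FPKM, a level per length, divides fragment counts by transcript length and by library size, and each gene's value is the sum over its transcripts. RNA came from the cerebral cortex of mice aged 3 or 10 months on a (C57BL/6 x C3H)F1 background. Transgenic mice (TG) carried Tg(Prnp-MAPT*P301S)PS19Vle, also called PS19, in which the promoter of the prion protein gene Prnp drives human tau with the P301S mutation. Wild-type mice (WT) of that background were the controls. The groups WT03M, TG03M, WT10M and TG10M (genotype and age in months) had 5 libraries each. Whether each library is a separate mouse, and the sex of the mice, are not given in the labels, so p-values measure the spread between these libraries.

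Cells build cholesterol from acetyl-CoA. Hmgcs1 makes HMG-CoA, a precursor of mevalonate, and Mvd and Idi1 turn phosphorylated mevalonate into the isoprene units that Fdps joins into farnesyl diphosphate. Fdft1 (squalene synthase) joins farnesyl units into squalene, Sqle oxidises squalene, Lss closes it into lanosterol, and Cyp51 removes a methyl group from lanosterol. Genes of the pathway are classic targets of the transcription factor SREBP2 (gene Srebf2), which is held inactive with its escort Scap by the Insig proteins when sterols are abundant. Because cholesterol hardly crosses the blood-brain barrier, the brain makes its own, in glia and neurons, and much of it lies in myelin.

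Promoter sequences are shown because shared control by SREBP2 is the textbook link between these genes. RefSeq windows of 250 bases before to 50 after the transcript start (build GRCm38.p6) were at hand for 5 of the 8 genes (Hmgcs1, Mvd, Idi1, Lss and Cyp51). On either strand, the sterol regulatory element core TCACNCCA was found in 1 of the 5, Hmgcs1, and in 4.36% of all 32851 windows. The box CCAAT, which NF-Y binds, was in 5 of 5 and in 37.4% of all windows. The GC box GGGCGG was in 5 of 5 and in 35.7% of all windows. The lines below give the bases upstream of the annotated exons of 3 genes, 5′ to 3′ on the gene's strand, with the element core TCACNCCA and the box CCAAT (or ATTGG, its reverse complement) in capitals. They are chr13:119690201-119690350 (plus strand) for Hmgcs1, chr8:122443423-122443572 (minus strand) for Mvd and chr10:76531455-76531587 (plus strand) for Lss.
Hmgcs1: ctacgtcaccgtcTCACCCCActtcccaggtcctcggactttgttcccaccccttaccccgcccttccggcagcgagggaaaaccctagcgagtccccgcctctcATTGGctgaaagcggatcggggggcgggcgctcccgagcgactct
Mvd: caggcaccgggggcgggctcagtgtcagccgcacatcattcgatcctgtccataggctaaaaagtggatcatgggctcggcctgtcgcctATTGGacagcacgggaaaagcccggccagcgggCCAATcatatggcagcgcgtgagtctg
Lss: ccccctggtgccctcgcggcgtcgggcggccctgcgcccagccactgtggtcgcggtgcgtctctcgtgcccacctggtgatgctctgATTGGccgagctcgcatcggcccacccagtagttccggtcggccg
A match is a stretch of letters and not a measured binding site.

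The depth per library, estimated from the steps between the smallest FPKM values, was 22.6 to 30.2 M fragments (M, mega). At that depth the members held an estimated 394 (Mvd, lowest library) to 11542 (Hmgcs1, highest library) fragments, with a counting error of 5.04% and 1.14% at the lowest library of Mvd and of Hmgcs1. The neuron genes Slc17a7, at 257 to 354 FPKM, and Snap25, at 1531 to 1753 FPKM, were high in every library. Markers of neighbouring tissue varied more between libraries. Summed FPKM ranged from 190 to 536 for 9 striatum markers and from 88.6 to 1293 for 8 choroid plexus markers. Their part in the enzyme levels was not tested. On the first principal component of all tested genes (23.9% of the variance), 3 libraries stood apart at 26.2 to 30.9, namely WT10M replicate 5 and TG10M replicates 1 and 5. The other 17 lay between -12.1 and 2.52. The labels give no batch for them, and results that rest on them are given with and without them. They also had Hsp90aa1 at 13.9 to 16.6 FPKM, as did TG03M replicates 2 to 5 at 16.2 to 20.5 FPKM, against 532 to 687 FPKM in the other 13 libraries. All WT03M libraries (547 to 687 FPKM) and TG03M replicate 1 (560 FPKM) were among these 13. At 3 months the low level therefore went largely with genotype. Whether what sets these libraries apart bears on the genotype differences at 3 months, or averaged over the ages, was not tested.

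All 8 enzymes were expressed in every library, over a 15.3-fold range of mean FPKM. Hmgcs1 was highest at a mean of 111.6 FPKM, followed by Fdps at 64.6, Fdft1 at 35.1, Sqle at 27.0, Idi1 at 25.1, Cyp51 at 21.6, Mvd at 11.3 and Lss at 7.28. Neighbours in this order held it in 20 of 20 libraries except Sqle over Idi1 (16 of 20) and Idi1 over Cyp51 (17 of 20). The ranges of Fdps and Fdft1, of Fdft1 and Sqle, and of Cyp51 and Mvd did not overlap, whereas those of the other neighbours did. The coefficient of variation over the 20 libraries had a median of 10.1% in the 8 genes and of 11.5% in all tested genes.

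**Figure D1:**
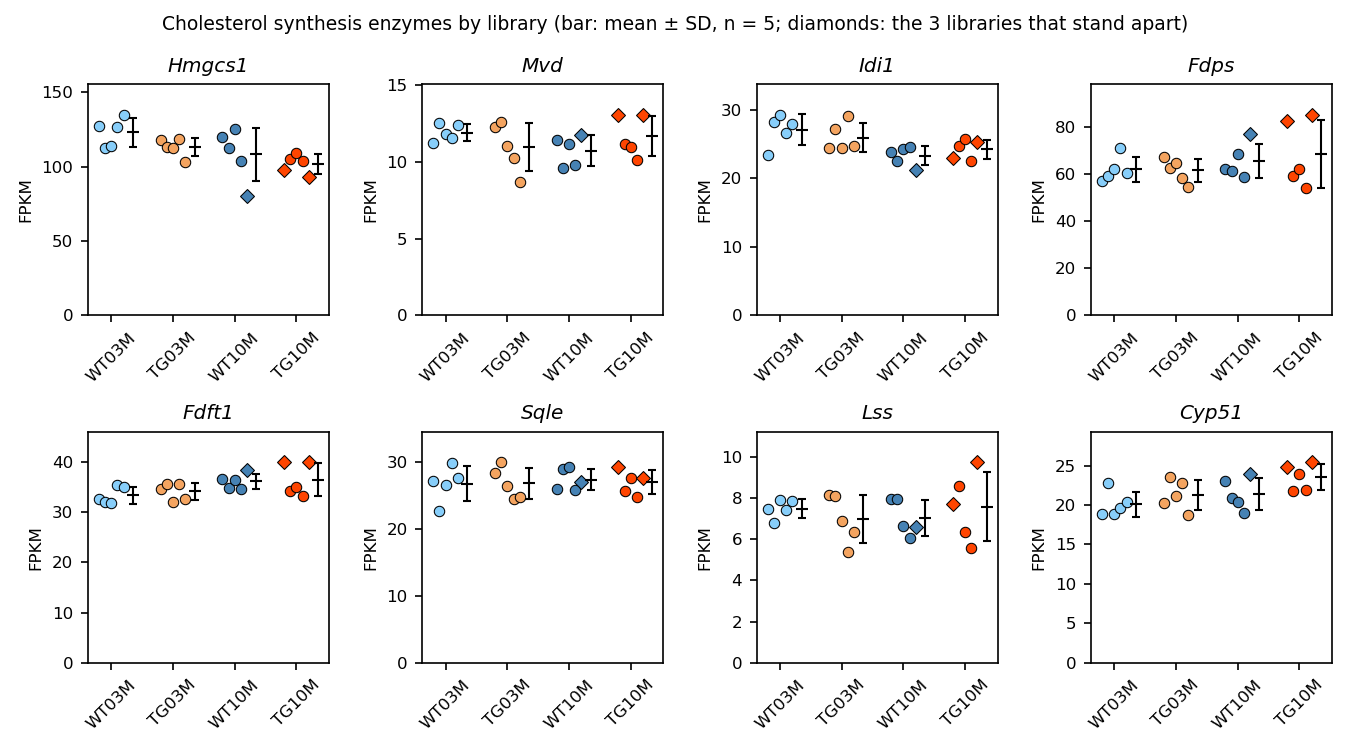
FPKM (linear axis from 0) of each enzyme in the 20 libraries by group, with the mean ± SD of 5 libraries as a bar; diamonds mark WT10M replicate 5 and TG10M replicates 1 and 5. For Fdps the diamonds sit at 77.2 to 85.4 FPKM, above all circles.

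Hmgcs1, the cytosolic HMG-CoA synthase (ENSMUSG00000093930; GRCm38 chromosome 13, 119690379 to 119708260, plus strand), was at 127, 113, 114, 126 and 135 FPKM in WT03M and at 118, 114, 113, 118 and 103 FPKM in TG03M. At 10 months it was at 119.7, 112, 125, 104 and 80.1 FPKM in WT10M and at 98.0, 105, 109, 104 and 92.8 FPKM in TG10M. The lowest values were those of the 3 libraries that stand apart. WT03M lay above TG10M without overlap, a pair that differs in both genotype and age, while the groups of each comparison made here overlapped. On the scale of log2(FPKM + 0.5), on which every difference here is given, it differed by -0.20 between WT10M and WT03M (SE 0.09, limma adjusted p = 0.696) and by -0.15 between TG10M and TG03M (SE 0.09, adjusted p = 0.399). Without the 3 libraries the difference with age was -0.09 in wild type (adjusted p = 0.754) and -0.09 in transgenic cortex (adjusted p = 0.714). The genotype difference was -0.12 at 3 months (SE 0.09, adjusted p = 0.678) and -0.07 at 10 months (SE 0.09, adjusted p = 0.738).

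Mvd, mevalonate diphosphate decarboxylase (ENSMUSG00000006517; chromosome 8, 122433601 to 122443422, minus strand), was at 11.3 to 12.5 FPKM in WT03M and 8.72 to 12.6 FPKM in TG03M. At 10 months it ranged from 9.60 to 11.7 FPKM in WT10M and from 10.2 to 13.1 FPKM in TG10M. The transgenic libraries were spread more widely than the wild-type ones at 3 months and covered their whole range. Its genotype difference was -0.12 at 3 months and 0.11 at 10 months, and the difference between these, 0.24 (SE 0.13), was the largest interaction of the 8 genes (limma adjusted p = 0.962). Without the 3 libraries that stand apart, the genotype difference at 10 months was 0.04 (adjusted p = 0.906) and the interaction 0.16 (adjusted p = 0.902).

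Idi1, isopentenyl diphosphate isomerase (ENSMUSG00000058258; chromosome 13, 8885501 to 8892451, plus strand), was at 23.4, 28.3, 29.3, 26.5 and 27.9 FPKM in WT03M and at 24.4, 27.1, 24.3, 29.0 and 24.8 FPKM in TG03M. In WT10M it was at 23.8, 22.5, 24.2, 24.5 and 21.3 FPKM, and in TG10M at 22.9, 24.6, 25.8, 22.5 and 25.2 FPKM. Only replicate 1 of WT03M lay within the range of WT10M, and the transgenic groups overlapped broadly. The difference between WT10M and WT03M was -0.21 (SE 0.07, limma adjusted p = 0.371). Averaged over the genotypes, the difference with age was -0.15 (SE 0.05, adjusted p = 0.0918), and without WT03M replicate 1 it was -0.18 (adjusted p = 0.0455). Without the 3 libraries that stand apart it was -0.14 (adjusted p = 0.262).

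Fdps, farnesyl diphosphate synthase (ENSMUSG00000059743; chromosome 3, 89093588 to 89101959, minus strand), was at 57.3, 59.3, 62.2, 71.4 and 60.7 FPKM in WT03M and at 67.5, 62.8, 64.9, 58.6 and 54.8 FPKM in TG03M. At 10 months it was at 62.2, 61.3, 68.6, 59.0 and 77.2 FPKM in WT10M and at 82.9, 59.3, 62.1, 54.0 and 85.4 FPKM in TG10M. The 3 highest values were those of the libraries that stand apart, while the other 17 overlapped across the groups. The genotype difference at 10 months was 0.05 with them (SE 0.11, limma adjusted p = 0.867) and -0.10 without them (SE 0.08, adjusted p = 0.593).

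Fdft1 (ENSMUSG00000021273; chromosome 14, 63145150 to 63179578, minus strand) was at 32.7, 32.1, 31.9, 35.5 and 35.0 FPKM in WT03M and at 34.7, 35.7, 32.1, 35.6 and 32.7 FPKM in TG03M. At 10 months it was at 36.5, 34.8, 36.4, 34.6 and 38.4 FPKM in WT10M and at 40.1, 34.2, 35.1, 33.2 and 40.0 FPKM in TG10M. As for Fdps, the 3 libraries that stand apart were highest. Averaged over the genotypes, the difference with age was 0.10 (SE 0.04, limma adjusted p = 0.195), and without the 3 libraries it was 0.05 (adjusted p = 0.632).

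Sqle, squalene epoxidase (ENSMUSG00000022351; chromosome 15, 59315077 to 59331192, plus strand), was at 22.6 to 29.8 FPKM in WT03M, 24.4 to 30.0 FPKM in TG03M, 25.8 to 29.2 FPKM in WT10M and 24.7 to 29.3 FPKM in TG10M. All 4 groups covered nearly the same range. Lss, lanosterol synthase (ENSMUSG00000033105; chromosome 10, 76531588 to 76557138, plus strand), was at 6.78 to 7.93 FPKM in WT03M, 5.37 to 8.17 FPKM in TG03M, 6.07 to 7.98 FPKM in WT10M and 5.56 to 9.76 FPKM in TG10M. Its transgenic libraries were lower and higher than the wild-type ones of the same age. Lss had the widest intervals of the 8 genes, with a half-width of 0.27 for a difference between a pair of groups, against 0.12 for Fdft1, the narrowest.

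Cyp51, lanosterol demethylase (ENSMUSG00000001467; chromosome 5, 4081145 to 4104746, minus strand), was at 18.9, 22.7, 18.9, 19.6 and 20.3 FPKM in WT03M and at 20.3, 23.5, 21.2, 22.8 and 18.8 FPKM in TG03M. At 10 months it was at 23.1, 20.8, 20.4, 19.0 and 23.9 FPKM in WT10M and at 24.8, 21.8, 23.9, 21.9 and 25.5 FPKM in TG10M. TG10M lay highest but overlapped the other 3 groups. It differed by 0.14 between the genotypes at 10 months (SE 0.07, limma adjusted p = 0.404) and by 0.14 between the ages in transgenic cortex (SE 0.07, adjusted p = 0.340). Without the 3 libraries these were 0.11 (adjusted p = 0.550) and 0.08 (adjusted p = 0.793).

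No enzyme passed the test in any of the 7 comparisons (limma over 13722 genes, Benjamini-Hochberg adjusted p under 0.05). For genotype at 3 months 0 of 8 were called, against 0.299% of all tested genes, and at 10 months 0 of 8, against 0.634%. For age 0 of 8 were called in wild type, against 0.0656%, and 0 of 8 in transgenic cortex, against 0.845%. The interaction of genotype and age gave 0 of 8, against 0.0364%. Averaging over genotypes gave 0 of 8 with age, against 1.75%, and averaging over ages 0 of 8 with genotype, against 2.7%. With backgrounds this low, a list of 8 genes holds fewer than 1 called gene at the background share in each comparison. At an unadjusted p under 0.05 the counts were 0 for genotype at either age, 2 for age in wild type (Hmgcs1 and Idi1), 0 for age in transgenic cortex and 0 for the interaction. They were 4 for age averaged over the genotypes (Hmgcs1, Idi1, Fdft1 and Cyp51) and 1 for genotype averaged over the ages (Cyp51). In the former, Hmgcs1 and Idi1 were lower at 10 months, and Fdft1 and Cyp51 were higher. Without the 3 libraries that stand apart, the unadjusted limma p for that age difference was 0.0143 for Idi1. It was 0.0572 for Hmgcs1, 0.177 for Fdft1 and 0.235 for Cyp51. For genotype averaged over the ages it was then 0.0825 for Cyp51 and 0.0189 for Hmgcs1. The share of all tested genes at an unadjusted p under 0.05 is not given here, so these counts have no background. In tissue RNA, fewer cells of a type and less RNA per cell cannot be told apart. The summed FPKM of 12 oligodendrocyte markers, the cells that make myelin, was 1544 to 1719 in WT03M and 1771 to 2128 in TG03M without overlap, and 1374 to 1783 in WT10M and 1700 to 1838 in TG10M. The summed FPKM of 10 mitochondrially encoded genes was 8051 to 8888 in WT03M and 11650 to 16821 in TG03M. At 10 months the ranges overlapped, at 8483 to 16860 in WT10M and 11786.5 to 15155 in TG10M. Their part in the enzymes' values was not tested.

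The intervals set how large a difference these libraries could still hold. Over the 4 comparisons between a pair of groups, all 32 of the 95% intervals lay within a 1.5-fold change in either direction. The intervals, not adjusted for the number of genes, held 0 in 30 of 32 cases. The lowest bound was a ratio of 0.765 (Hmgcs1, age in wild type) and the highest 1.29 (Lss, age in transgenic cortex). The median difference of the 8 genes was -0.04 for genotype at 3 months, 0.05 for genotype at 10 months, -0.03 for age in wild type and 0.09 for age in transgenic cortex. These medians include the 3 libraries that stand apart. Without them, the genotype difference at 10 months was above 0 only for Mvd (0.04), Idi1 (0.03) and Cyp51 (0.11). The other enzymes then lay between -0.12 (Hmgcs1) and -0.06 (Fdft1). For age in transgenic cortex only Fdft1 (0.0005) and Cyp51 (0.08) were then above 0, and the others lay between -0.09 (Hmgcs1) and -0.02 (Mvd).

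**Figure D2:**
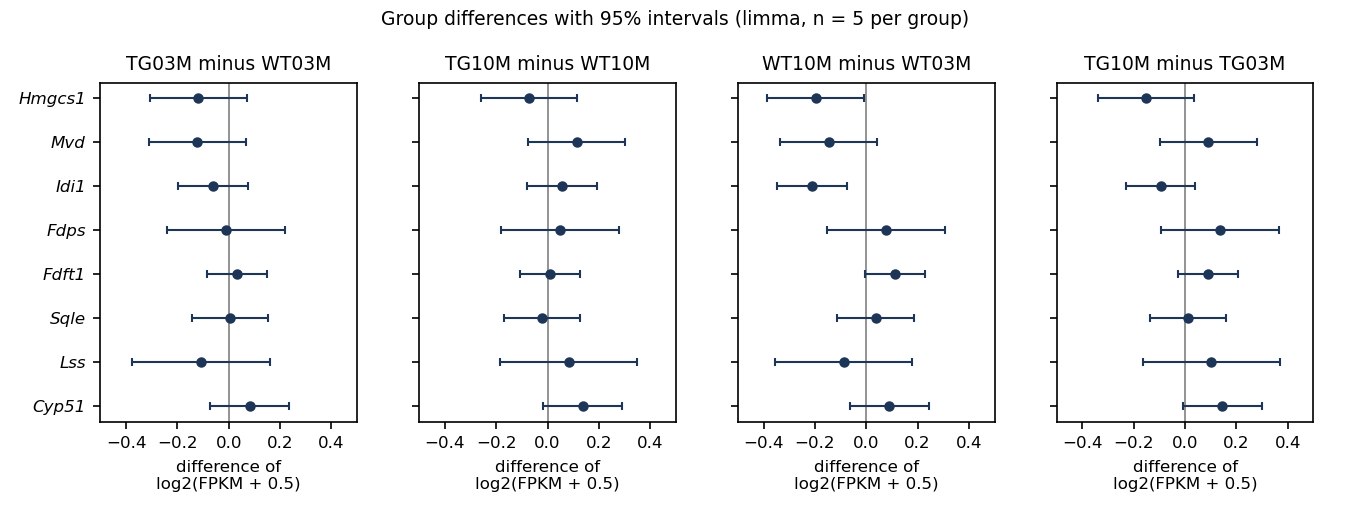
Difference of log2(FPKM + 0.5) between the groups named above each panel, for each enzyme, with the 95% limma interval (5 libraries per group). The intervals of Hmgcs1 and Idi1 for age in wild type, at -0.20 and -0.21, lie below 0, and the other 30 hold 0.

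A call for Hmgcs1 and one for Idi1 appeared when a single library was left out. Without WT10M replicate 5, Hmgcs1 passed the test for genotype averaged over the ages at -0.15 (limma adjusted p = 0.0338), where it was -0.10 (adjusted p = 0.421) with all libraries, and 1920 genes in all were then called against 370. Without all 3 libraries that stand apart it was -0.12 (adjusted p = 0.122), and 0 of 8 enzymes were called in any of the 6 comparisons refitted. Idi1 without WT03M replicate 1 is described above.

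The enzymes did not move together in the 3 libraries that stand apart. Fdps was at 77.2 to 85.4 FPKM in them and at 54.0 to 71.4 FPKM in the other 17. Fdft1 was at 38.4 to 40.1 FPKM against 31.9 to 36.5 FPKM, and Cyp51 lay just above the others at 23.89 to 25.5 FPKM against 18.8 to 23.87 FPKM. Hmgcs1 was on the opposite side, at 80.1 to 98.0 FPKM against 103 to 135 FPKM. Thus 3 enzymes lay above and 1 below all 17 others without overlap, 4 of 8, as did 23.2% of all tested genes. Mvd, Idi1, Sqle and Lss overlapped the others. Against the 7 other libraries of 10 months, Mvd also lay higher, at 11.7 to 13.1 FPKM against 9.60 to 11.4 FPKM, so that 5 of 8 did not overlap, against 34.4% of all genes.

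Of their regulators, Srebf1 and Srebf2 lay on opposite sides in the same libraries. Srebf1, which encodes SREBP1, was at 17.6 to 19.4 FPKM in the 3 libraries and at 11.0 to 16.5 FPKM in the other 17. Srebf2 was at 20.6 to 21.4 FPKM against 26.9 to 35.2 FPKM. Neither overlapped the 17, as was so for 23.2% of all tested genes. The summed FPKM of 7 genes of the SREBP machinery overlapped, at 177 to 184 against 155 to 192. Of these, Scap, Insig2, Mbtps1 and Mbtps2 are not given singly for the 3 libraries. Insig1, at 59.4 to 68.2 FPKM, lay above the 7 others of 10 months but overlapped the 17. So did Msmo1, an enzyme that acts after Cyp51, at 62.8 to 74.6 FPKM. Of all tested genes, 34.4% did not overlap the 7. The summed FPKM of 10 neuron markers was 2518 to 2547 in the 3 libraries against 2642 to 3024 in the 17, and that of 12 oligodendrocyte markers was 1526 to 1838 against 1374 to 2128. The part of these in the enzyme levels was not tested.

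**Figure D3:**
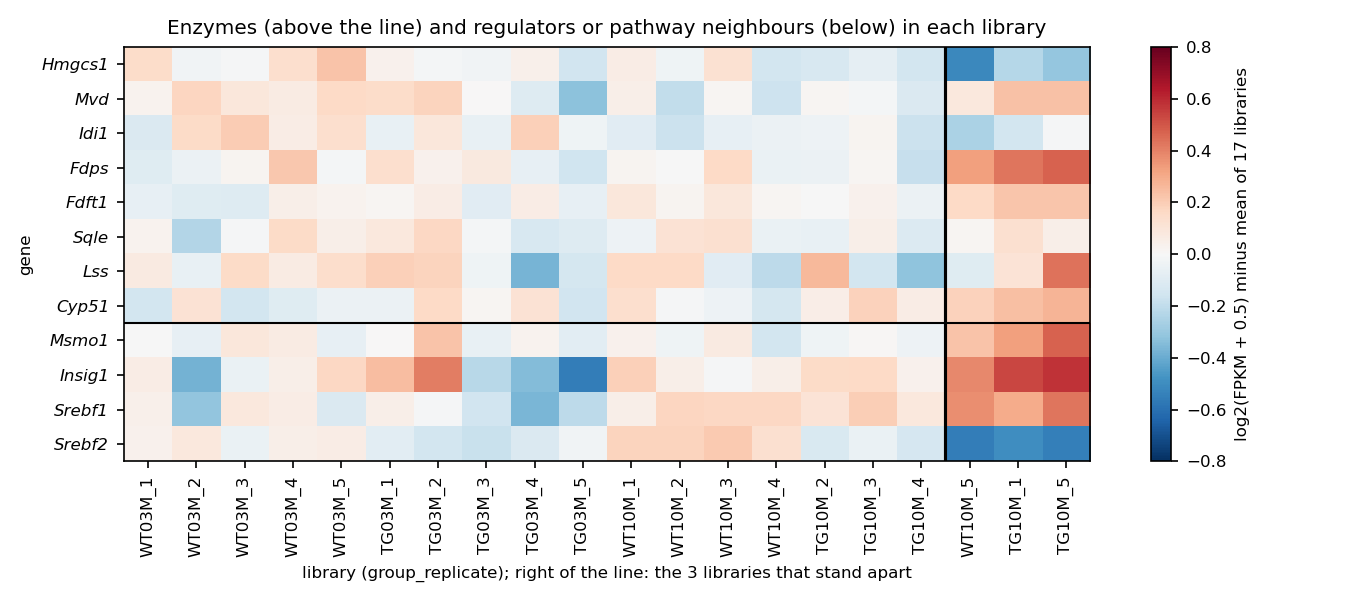
Each cell gives a gene's log2(FPKM + 0.5) in 1 library minus its mean over the 17 libraries left of the vertical line; enzymes are above the horizontal line, and Msmo1, Insig1, Srebf1 and Srebf2 below it. In the 3 libraries on the right, Fdps, Fdft1, Cyp51 and Srebf1 are above and Hmgcs1 and Srebf2 below all others.

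Across all 20 libraries, which share these depths and groups, 21 of the 28 pairs of enzymes had a positive Pearson's r and 12 had an r of 0.4 or more. The shares over all pairs of tested genes are not given here, so the counts of pairs have no background. The strongest pair was Fdps and Fdft1, the enzymes on either side of farnesyl diphosphate, at 0.80. The 15 pairs that leave out Hmgcs1 and Idi1 were all positive, from 0.04 to 0.80. Without the 3 libraries 12 of these 15 were positive, from -0.14 to 0.68, and Cyp51 had an r of -0.02 with Fdps, -0.14 with Sqle and -0.09 with Lss. Hmgcs1 had an r of -0.43 with Fdps, -0.42 with Fdft1 and -0.50 with Cyp51. In the 17 libraries the first 2 were 0.50 and 0.34 and that with Cyp51 was -0.13, while Fdps and Fdft1 were at 0.43. The negative relation of Hmgcs1 with Fdps and Fdft1 over 20 libraries therefore rests on the 3 libraries that stand apart. Fdps and Sqle, at 0.55 over 20 libraries and 0.68 over 17, were the highest pair without them.

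**Figure D4:**
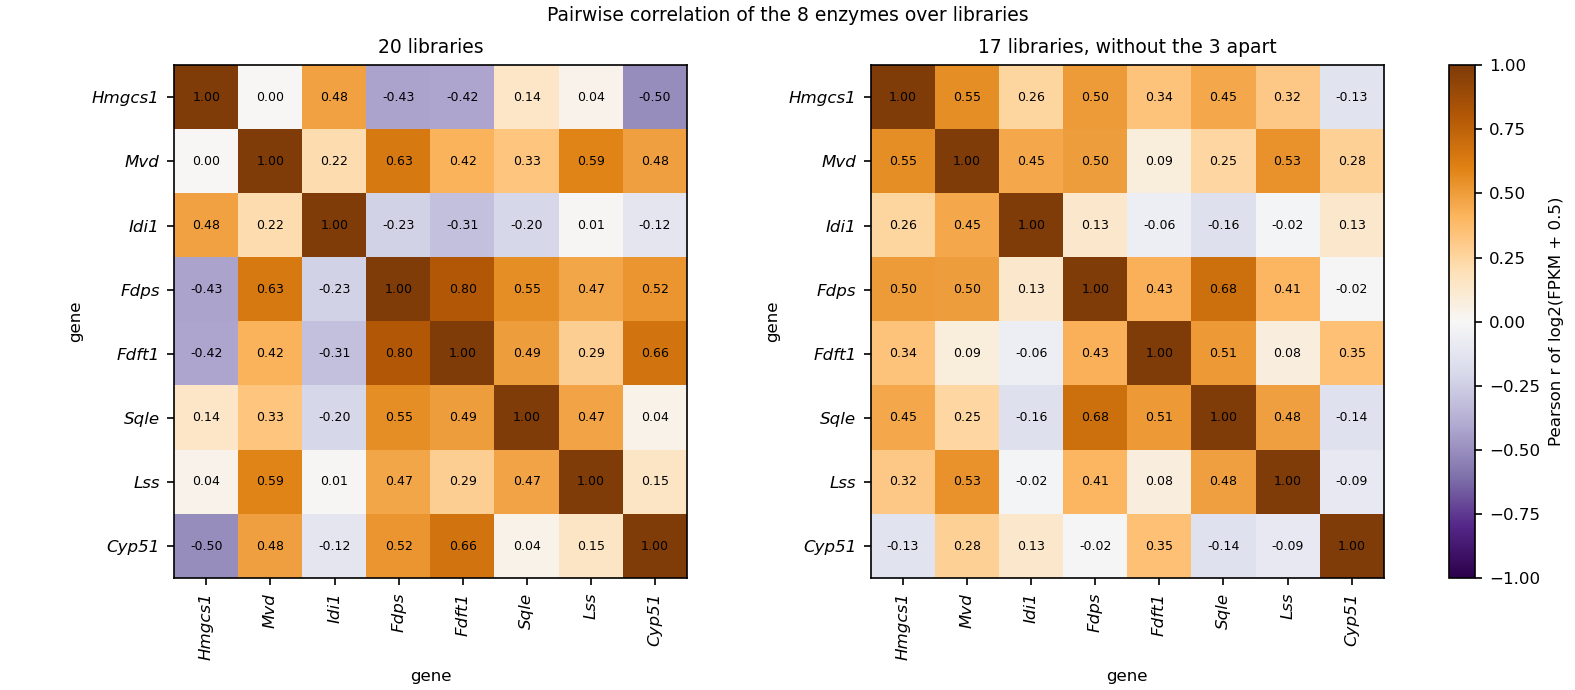
Pearson's r of log2(FPKM + 0.5) for each pair of enzymes over 20 libraries (left) and over the 17 without WT10M replicate 5 and TG10M replicates 1 and 5 (right). Hmgcs1 with Fdps is -0.43 on the left and 0.50 on the right.

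The table lists 17 transcripts for the 8 genes, and 1 transcript carried most of each. Hmgcs1, Mvd, Fdft1 and Cyp51 had 1 transcript each. Sqle-201 held 99.5% of its gene's FPKM, Fdps-201 97.4%, Lss-201 92.7% and Idi1-201 85.2%. Of Idi1, the short transcript Idi1-204 (581 bases) held 14.0% ± 7.33 (SD, n = 5) in WT03M and 17.2% ± 2.61 in TG03M, against 6.76% ± 4.93 in WT10M and 14.7% ± 3.58 in TG10M. Its share ranged from 1.07 to 20.2% over libraries, was lowest on average in WT10M, and was not tested. The split between transcripts that share exons is an estimate of the authors' software.

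The other enzymes of the pathway gave the same count. Of 13 of them, 0 were called in any of the 7 comparisons. Their summed FPKM was 303 to 318 in the 3 libraries that stand apart and 265 to 298 in the other 17, a difference that was not tested. Hsd17b7, a sterol ketone reductase after Cyp51, differed by 0.22 with age averaged over the genotypes (SE 0.07, limma adjusted p = 0.0931), and Dhcr7, which makes cholesterol from its last precursor, by -0.20 (SE 0.07, adjusted p = 0.159). Lists of 9 genes of cholesterol efflux and turnover, 9 of the isoprenoid branch that starts from farnesyl diphosphate, and 9 of fatty acid synthesis also had 0 calls in all 7.

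Among 7 genes of the SREBP machinery, each tested in 7 comparisons, 1 rose with age averaged over the genotypes (background 1.75%) and 1 fell with genotype averaged over the ages (background 2.7%). Srebf1 was at 13.8 ± 1.59 FPKM in WT03M and 13.0 ± 1.52 FPKM in TG03M, against 16.3 ± 1.42 FPKM in WT10M and 16.8 ± 1.76 FPKM in TG10M (SD, n = 5), and rose with age averaged over the genotypes by 0.30 (SE 0.06, limma adjusted p = 0.0228). It did not pass the test without the 3 libraries that stand apart, where its values were highest (0.23, adjusted p = 0.128), or with its most abundant transcript alone (0.28, adjusted p = 0.106). Mbtps2, a protease that releases SREBPs from the membrane, was at 7.11 ± 0.733 FPKM in WT03M against 6.09 ± 0.601 FPKM in TG03M, and at 6.92 ± 0.838 FPKM in WT10M against 5.28 ± 0.536 FPKM in TG10M. It fell by 0.28 with genotype averaged over the ages (adjusted p = 0.0238), and without WT10M replicate 3 the difference was -0.27 (adjusted p = 0.0544).

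Of 10 genes of cholesterol uptake and carriage, Clu rose in transgenic cortex at both ages and Apoe at 10 months. The background was 0.299% of all tested genes at 3 months and 0.634% at 10 months. Clu, which encodes the apolipoprotein clusterin, was at 309 ± 9.40 FPKM in WT10M and 399 ± 31.1 FPKM in TG10M (SD, n = 5), and the ranges of 298 to 322 and 360 to 443 FPKM did not overlap. It rose by 0.36 at 10 months (limma adjusted p = 0.00580) and by 0.30 at 3 months (adjusted p = 0.0375). The 10-month call held in 22 of 22 alternatives, and the 3-month call was lost in 11 of 21, among them the omission of any 1 library of WT03M or TG03M other than TG03M replicate 1 (0.25 to 0.31, adjusted p from 0.0614 to 0.139). Apoe, the main lipid carrier of the brain and made largely by astrocytes, was at 2034 ± 75.7 FPKM in WT03M and 2041 ± 173 FPKM in TG03M. At 10 months it was at 1964 ± 61.3 FPKM in WT10M and 2375 ± 148 FPKM in TG10M and rose by 0.27 (limma adjusted p = 0.0390). That call was lost in 14 of 22 alternatives, among them the omission of any 1 library of WT10M or TG10M other than WT10M replicate 5 (0.24 to 0.30, adjusted p from 0.0519 to 0.129). The summed FPKM of 10 astrocyte markers was 1229 to 1400 in WT10M and 1513 to 1675 in TG10M, and that of 10 microglia markers 214 to 325 and 327 to 407. Their part in the levels of Clu and Apoe was not tested.

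Likeness to the enzymes was measured as Pearson's r, over 20 libraries, between a gene's log2 value and the mean standardised log2 value of the 8 enzymes. Of 13714 other genes the 10 highest were Ankrd49 (0.77), Angel2, Txndc5, Msmo1 (0.75), Rpa2, Syce2, Nek8, Nudt11, Hddc2 and Sdc1 (0.72). Msmo1, the sterol methyl oxidase, was at rank 4 and Insig1 at rank 13. The 5 lowest were Gria3 (-0.79), Rcor1, Zer1, Spag5 and Phrf1. The points share groups, depth and the 3 libraries that stand apart.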

How the data were processed

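Total RNA libraries of cortex were sequenced on an Illumina HiSeq 4000, per the labels. The deposited mRNA table holds FPKM per transcript, per the labels; the other 3 deposited files were not used. The submitters' processing notes name CASAVA, TopHat2, Cuffdiff and DESeq2 and the build GRCm38 (mm10); role and version of each: not given in the sources used here. FPKM was summed per gene, and gene positions are from GENCODE M21. No counts were used; depth was estimated from 1815 genes with 1 transcript of over 4000 bases, where 83.3 to 94.3% of low values lay within 0.1 of a whole multiple of the step.

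The 13722 genes whose mean FPKM reached 0.5 were tested on log2(FPKM + 0.5), which understates changes of low genes, with limma 3.58.1 in R 4.3.3 (lmFit, contrasts, eBayes with a trend; 16 residual degrees of freedom), two-sided. The code was tested on simulated data. The text names all 8 members, up to 3 genes with the smallest p of other lists described, and the 10 most and 5 least alike genes; Clu, Apoe, Slc17a7, Snap25 and Hsp90aa1 are named for context after their values were seen. The members and lists were chosen with earlier results of these data known. Libraries that stand apart were found from the values. No pairing by replicate number was evident: 5 of 20 same-numbered pairs correlated above 0.1 (r from -0.42 to 0.66). The highest r was that of replicate 5 of WT10M and TG10M, which both stand apart. Low correlations cannot exclude that same-numbered libraries were prepared together. Alternatives were other pseudocounts, filters and scalings, the compared groups alone, a replicate block, array weights, a robust prior, the most abundant transcript, and leaving out libraries.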

Additional observations from a re-analysis of the deposited data

How the results depend on the processing

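The count of enzymes called stayed at 0 in 178 of 180 refits over the 7 comparisons. Leaving out 1 library at a time gave 0 to 1 for age averaged over the genotypes (1, Idi1, without WT03M replicate 1), 0 to 1 for genotype averaged over the ages (1, Hmgcs1, without WT10M replicate 5), and 0 to 0 for the others. Of 1440 refitted differences of single enzymes, 100 changed sign, in 25 of 56 results, none of them called with either setting. With the replicate block, 0 enzymes were called in every comparison, and the block changed no enzyme's call, while Apoe at 10 months then differed by the same 0.27 with an adjusted p of 0.0715. The count over all genes moved more: for genotype at 10 months it was 87, and 20 to 1600 over the alternatives, and for genotype averaged over the ages 370, and 162 to 1928. The ranges were 11 to 261 for genotype at 3 months (41), 1 to 44 for age in wild type (9), 53 to 154 for age in transgenic cortex (116), 3 to 10 for the interaction (5) and 86 to 290 for age averaged over the genotypes (240). The cause was not tested. Counting error at these depths, 1.14 to 5.04% at each enzyme's lowest library, limits Mvd and Lss most. The number of libraries limits the intervals.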
